A study of Rattus norvegicus with 6 samples.

Results

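The genes described here are 72 protein-coding genes of the lysosome and of autophagy in cultured heart muscle cells of newborn rats, out of 22250 protein-coding rows and 34510 rows in all. They were picked by symbol: subunits of the vacuolar proton pump (Atp6v), cathepsins with a letter in their name (Cts), LAMP membrane proteins, ATG proteins, the LC3 and GABARAP proteins, and Sqstm1, Tfeb, Tfe3, Ulk1 and Becn1. The choice used symbols and gene class and no measured value, but earlier results of these data were known when it was made. The libraries are poly(A) RNA of neonatal rat ventricular cardiomyocytes, 3 labelled Bgal and 3 labelled Trim28. The series' design text says that cells received an adenovirus that expresses TRIM28, a chromatin corepressor, and its title ties TRIM28 to ferroptosis, a cell death that depends on iron. The labels do not say what Bgal stands for or what the Bgal cells were given, and name neither dose nor time of infection. They also do not say whether the libraries of a group came from separate cultures, so each p-value measures the spread between these libraries only, which may be technical.

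Lysosomes are acidic compartments in which proteins, lipids and sugars are broken down. Their acidity comes from the V-ATPase, a rotary pump in which the cytosolic V1 part splits ATP and turns the membrane-bound V0 part, which moves protons. Cathepsins are the main lysosomal proteases. In autophagy, cell material is enclosed in a membrane coated with lipid-linked LC3 and GABARAP proteins and then delivered to lysosomes, a route by which heart muscle cells clear worn mitochondria and protein aggregates. TFEB and TFE3 are transcription factors known to switch on lysosomal and autophagy genes.

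Levels are in FPKM, fragments scaled to gene length and to the size of the library, so levels of different genes can be set side by side. Reads on genes ranged from 26146166 to 34593292 per library. As a check of the labels, Trim28 itself stood at 81.6, 87.8 and 77.6 FPKM in Bgal libraries 1 to 3 and at 2923, 2889.8 and 980.0 FPKM in Trim28 libraries 1 to 3. Trim28 library 3 thus held less Trim28 RNA than libraries 1 and 2 of its group, and more than every Bgal library. Heart muscle markers were high in every library, with a summed level of 16323 to 18736 FPKM over 8 genes in the Bgal libraries and 19155 to 19378 FPKM in the Trim28 libraries; 4 of the 8 fell and 2 rose. The summed level of 16 macrophage and leukocyte markers was 43.3 to 45.0 FPKM in the Bgal and 91.9 to 96.2 FPKM in the Trim28 libraries, and 10 of the 11 that were tested rose. One of the 10, Adgre1, reached the level needed for testing in the Trim28 libraries only, at 0.636, 0.642 and 0.960 FPKM against 0.103, 0.148 and 0.0712 FPKM, so that it had to be higher there. Among 12 fibroblast and matrix markers 9 rose, with a sum of 794 to 849 FPKM in the Bgal and 1294 to 1363 FPKM in the Trim28 libraries. Of 10 smooth muscle and mural cell markers 8 rose and 1 fell, with sums of 808 to 1058 FPKM and 1645 to 1744 FPKM. The endothelial list did not share this: its 7 genes summed to 11.0 to 11.7 FPKM with Bgal and 11.4 to 11.9 FPKM with Trim28, which overlap. Only Flt1, Tek and Kdr of that list reached the level needed for testing, and Flt1 and Tek rose while Kdr fell. For comparison, 20.1% of all tested genes rose and 21.1% fell. The part of these other cells in the results below was not tested. In bulk RNA, fewer cells of a type and less RNA per cell cannot be told apart.

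Of the 72 genes, 54 reached 0.5 FPKM in at least 3 libraries and were tested, with limma on log2(FPKM + 1) over all 14808 genes that did so and Benjamini-Hochberg adjustment. A gene is said to rise or fall where its adjusted p is under 0.05. By that rule 20 of the 54 fell, 4 rose and 30 did not pass, while of all tested genes 21.1% fell, 20.1% rose and 41.2% changed in either direction. The share that fell among the lysosome and autophagy genes was 37.0%, and the share that rose was 7.41%. Most of these genes were well expressed, with a median level of 33.2 FPKM against 8.11 FPKM over all tested genes, and the share that fell was larger at higher levels: 28.2% of all tested genes between 10 and 50 FPKM fell, 39.5% of those between 50 and 100 FPKM, and 40.2% of those above 100 FPKM. The median log2 change was -0.13 over the 54 genes and -0.02 over all tested genes. The log2 changes of FPKM + 1 lay between -0.74 for Atp6v1d and 0.82 for Ctss. As a ratio of mean FPKM, which the added 1 does not shrink, Ctss was 2.55-fold higher in the Trim28 libraries.

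**Figure D1:**
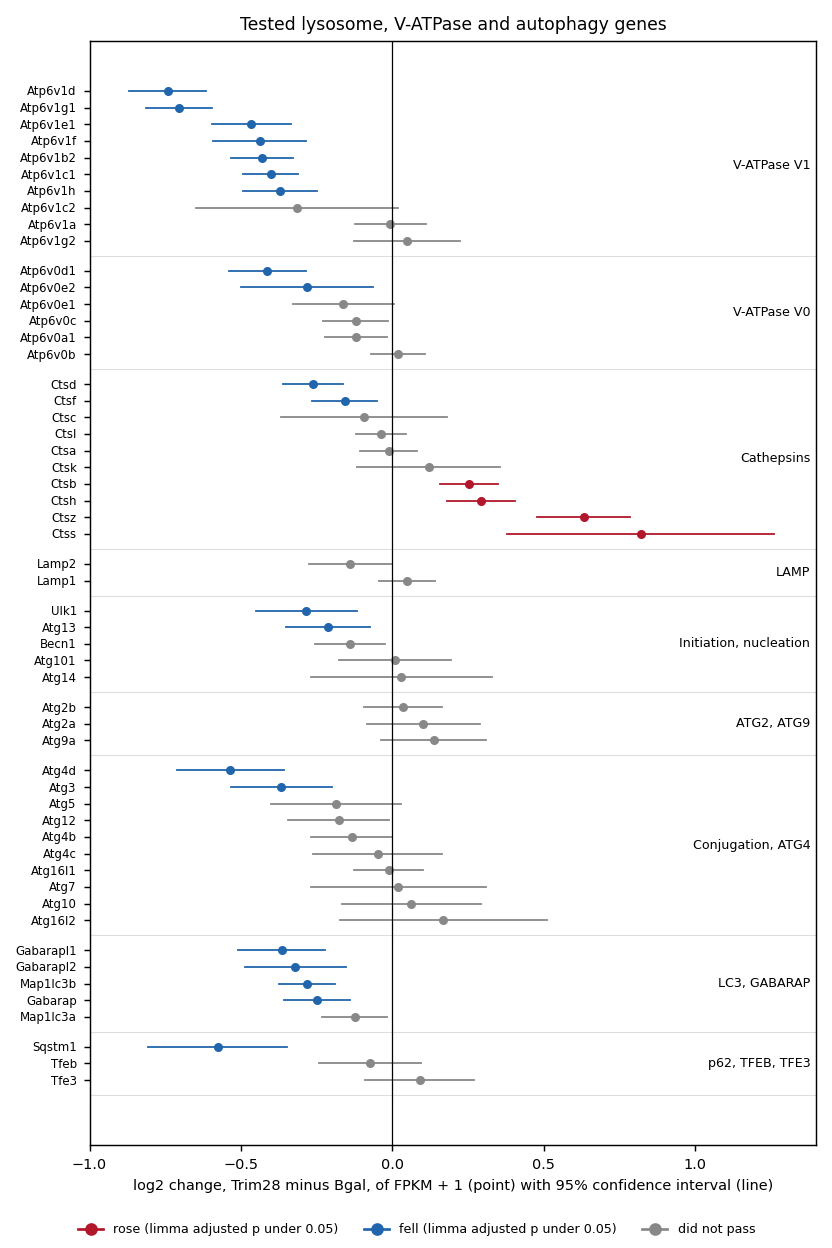
Log2 change of FPKM + 1, Trim28 minus Bgal, of the 54 tested genes, grouped by role; points are estimates, lines are 95% confidence intervals (3 libraries per group), and colour gives the call at a limma adjusted p of 0.05. Blue points gather among the V1 subunits and the LC3 and GABARAP proteins, and the 4 red points are all cathepsins.

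The V1 part of the proton pump was lower in the Trim28 libraries for most of its subunits. Of 10 tested V1 genes 7 fell, 0 rose and 3 did not pass, with a median log2 change of -0.42. Of all tested genes 21.1% fell. At the levels of most V1 genes that share was larger: 28.2% between 10 and 50 FPKM, 39.5% between 50 and 100 FPKM and 40.2% above 100 FPKM. Atp6v1d, which encodes subunit D of the central stalk that turns with catalysis (ENSRNOG00000009080, chromosome 6, 102032276 to 102047758 in the deposited table, genome build not stated in its labels or header), stood at 249.8, 259.7 and 285 FPKM in the Bgal libraries and at 159.8, 158 and 156 FPKM in the Trim28 libraries. The 3 Trim28 values lay close together and well under the lowest Bgal value. That is a 1.68-fold fall in mean FPKM, and its log2 change of -0.74 (SE 0.05) had a limma adjusted p of 0.000119. Atp6v1g1, a peripheral stalk subunit (ENSRNOG00000008163, chromosome 5, 79367663 to 79373843), stood at 231, 212 and 232 FPKM and at 136, 138 and 139 FPKM. Its groups were as far apart, with a 1.64-fold fall and a log2 change of -0.70 (SE 0.05, limma adjusted p = 9e-05).

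The other 5 V1 genes that fell did so by smaller amounts. Atp6v1e1, the peripheral stalk partner of subunit G (chromosome 4, 153351421 to 153373649), went from 99.5, 89.6 and 89.9 FPKM to 68.2, 63.98 and 68.9 FPKM (log2 change -0.47, limma adjusted p = 0.000752). Atp6v1b2, the B subunit that forms the catalytic ring together with A (chromosome 16, 22326529 to 22350155), went from 68.2, 65.7 and 63.4 FPKM to 48.9, 47.7 and 48.95 FPKM (log2 change -0.43, limma adjusted p = 0.000384). In both genes no Trim28 library reached the lowest Bgal library. Atp6v1c1, whose subunit C joins the stalks and leaves the complex when V1 and V0 come apart (chromosome 7, 77678968 to 77716408), had 69.5, 67.6 and 68.4 FPKM and 51.2, 52.7 and 50.9 FPKM, a log2 change of -0.40 (limma adjusted p = 0.000311). Atp6v1f, the other subunit of the central stalk, stood at 139 ± 5.28 and 102 ± 8.51 FPKM, and Atp6v1h, a regulatory subunit, at 46.6 ± 2.12 and 35.8 ± 1.41 FPKM (SD, n = 3 each). Both fell (limma adjusted p = 0.00188 and 0.00143), with every Trim28 library under every Bgal library. That lack of overlap held for 27.7% of all tested genes and for 3108 of the 3126 that fell, so it adds little to a call.

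The gene of the catalytic subunit A did not pass. Atp6v1a, which binds and splits ATP, stood at 33.99, 31.1 and 31.5 FPKM in the Bgal and 31.98, 31.5 and 32.5 FPKM in the Trim28 libraries, and the groups overlapped. Its log2 difference was -0.01 with a 95% confidence interval of -0.12 to 0.11, as are all intervals given below for log2 differences (limma adjusted p = 0.927). Per unit of length there were 7.35, 8.36 and 9.04 times as many fragments of Atp6v1d as of Atp6v1a with Bgal, against 5.00, 5.00 and 4.79 times as many with Trim28. For Atp6v1b2, the ring partner of A, that ratio was 2.01, 2.12 and 2.01 against 1.53, 1.51 and 1.51. Neither ratio overlapped between the groups (exact permutation p = 0.1 for each, two-sided, which is the smallest value that 3 against 3 libraries allow), and both were chosen after their values were seen. Atp6v1g2, a form of subunit G known from neurons, stood at 10.5 ± 0.748 and 10.9 ± 0.630 FPKM (limma adjusted p = 0.632). Its entry overlaps Nfkbil1 and 2 RT1 genes, so its value is uncertain. Atp6v1c2, a second form of subunit C, was low at 1.53 ± 0.392 and 1.02 ± 0.120 FPKM. It did not pass (limma adjusted p = 0.115), although it did without Bgal replicate 2 (limma adjusted p = 0.0334).

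In the membrane-bound V0 part, 2 of 6 tested genes fell, 0 rose and 4 did not pass, with a median log2 change of -0.14. That share of 33.3% was between the 21.1% of all tested genes that fell and the 39.5% of those between 50 and 100 FPKM. Atp6v0d1, whose subunit d couples the V1 rotor to the V0 ring (ENSRNOG00000017235, chromosome 19, 37481782 to 37525762), stood at 39.7, 44.7 and 42.6 FPKM in the Bgal and at 30.8, 32.04 and 31.8 FPKM in the Trim28 libraries. The groups did not overlap, and the log2 change was -0.41 (SE 0.05, limma adjusted p = 0.00111). An antisense entry shares 1859 bases of its span, and the strand setting of the counting is not known. Atp6v0e2, a small V0 subunit, went from 66.6, 77.7 and 61.1 to 53.3, 53.9 and 60.6 FPKM, with the highest Trim28 library just under the lowest Bgal library. Its call (limma adjusted p = 0.0442) was lost on leaving out Bgal replicate 1 (0.0844) or 2 (0.0911), or Trim28 replicate 1 (0.123) or 2 (0.121), with the replicate block (0.073) and with no filter (0.0906).

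The genes of the proton-carrying ring and of subunit a did not pass. Atp6v0c, which supplies most of the ring's proteolipid subunits and was the most abundant pump gene, stood at 320.3, 324 and 306 FPKM and 296, 299 and 278 FPKM (log2 difference -0.12, limma adjusted p = 0.0705). Atp6v0a1, the a subunit through which protons pass, had 56.1, 55.5 and 59.5 FPKM and 52.8, 52.3 and 52.04 FPKM (log2 difference -0.12, limma adjusted p = 0.0597). Neither passed although neither overlapped between the groups, as was the case on the lower side for 27.7% of all tested genes. Both passed in limma-voom on the reads recovered from the table (0.0407 and 0.0335), where 4 V0 genes fell. Atp6v0b, another proteolipid of the ring, stood at 108 ± 2.15 and 109 ± 1.66 FPKM with overlapping groups (interval -0.07 to 0.11). Atp6v0e1, the other small subunit, did not pass either, at 27.99 ± 2.42 and 24.9 ± 1.23 FPKM.

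Summed over 13 V1 subunit genes, FPKM was 947, 919.8 and 974 with Bgal and 638, 641 and 657 with Trim28. The corresponding sums over 8 V0 genes were 623, 635 and 603 against 564, 574 and 558. V1 RNA per V0 RNA was therefore 1.52, 1.45 and 1.62 with Bgal against 1.13, 1.12 and 1.18 with Trim28. The 2 sets of ratios did not overlap, and no test was made of these sums over chosen genes. A few abundant genes weigh most in them. Atp6v1d went from 265 to 158 FPKM on average and Atp6v1g1 from 225 to 138 FPKM, within mean V1 sums of 947 and 645 FPKM. Atp6v0c stood at 317 and 291 FPKM within mean V0 sums of 620 and 565 FPKM. The V0 sums leave out Tcirg1, a form of subunit a, at 8.50 and 11.7 FPKM.

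**Figure D2:**
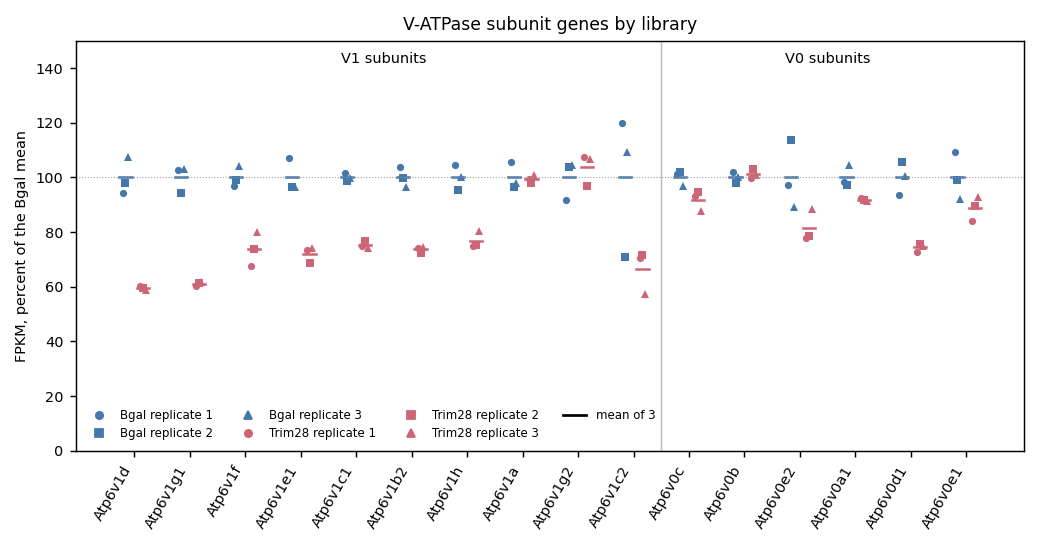
FPKM of the 16 tested V-ATPase genes in each of the 6 libraries, as percent of the gene's mean in the 3 Bgal libraries; bars are group means and symbols mark the replicate. Median levels of the 10 tested V1 genes were 73.8%, 73.1% and 74.4% of the Bgal mean in Trim28 libraries 1 to 3, and those of the 6 tested V0 genes 88.4%, 90.7% and 89.9%.

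Several subunits come in forms made from different genes, and the share of a form lay apart between the groups for 3 of the 7 subunits with more than 1 form in these data. For subunit a, the share of Tcirg1, the a3 form known from osteoclasts and immune cells, was 12.8%, 12.7% and 13.4% of the summed FPKM of Atp6v0a1, Tcirg1 and Atp6v0a4 in the Bgal libraries, against 18.7%, 19.8% and 16.1% with Trim28. Tcirg1 rose from 8.23, 8.05 and 9.22 to 12.2, 12.9 and 9.96 FPKM (log2 change 0.41, limma adjusted p = 0.0155). It did so in the libraries in which macrophage, fibroblast and mural cell markers rose, and their part in it was not tested. The a2 form has no entry of that name here, although its protein name stands on the entry of Tctn2. For subunit G, the share of Atp6v1g2 was 4.02%, 4.89% and 4.53% against 7.69%, 6.88% and 7.48%. Atp6v1g2 itself stood at 10.5 and 10.9 FPKM on average and did not pass, while Atp6v1g1 went from 225 to 138 FPKM. The larger share thus goes with the fall of Atp6v1g1, and the value of Atp6v1g2 is uncertain, as said above. For subunit E, the share of Atp6v1e2, a form known from testis, was 0%, 0% and 0.0326% against 0.841%, 0.538% and 0.658%. Atp6v1e2 was too low to be tested, and its share rests on 0, 0 and 1 reads against 16, 9 and 13 reads. Each of these 3 shares had an exact permutation p of 0.1, the smallest that this design can give. For subunits B, C, d and e the shares overlapped between the groups, and Atp6v1b2, Atp6v1c1 and Atp6v0d1 made up 97.4% or more of their subunit's RNA in each of the 6 libraries.

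Cathepsins were the one role group with rises. Of 10 tested, 4 rose, 2 fell and 4 did not pass, against 20.1% of all tested genes that rose and 21.1% that fell. Ctsb, a cysteine protease (ENSRNOG00000010331, chromosome 15, 46316741 to 46337612), stood at 274, 264 and 271 FPKM in the Bgal and at 322, 329.8 and 313 FPKM in the Trim28 libraries. Its log2 change was 0.25 (SE 0.04, limma adjusted p = 0.00253). Ctsd, the main aspartic protease of lysosomes (ENSRNOG00000020206, chromosome 1, 215541542 to 215553451), moved the other way, from 346, 358 and 342 to 289, 299.6 and 283 FPKM (log2 change -0.26, SE 0.04, limma adjusted p = 0.00253). Neither gene overlapped between the groups, as was the case for 26.0% of all tested genes on the higher side and 27.7% on the lower side. The order of the most abundant pair turned over: Ctsb stood at 0.790, 0.738 and 0.794 times the level of Ctsd with Bgal, and at 1.12, 1.10 and 1.11 times with Trim28 (exact permutation p = 0.1, two-sided, chosen after the values were seen). The sum over all 19 cathepsin genes was 1066 FPKM on average in the Bgal and 1072 FPKM in the Trim28 libraries, with overlapping values.

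The other 3 cathepsins that rose were lower in level. Ctsz, a carboxypeptidase also called cathepsin X, went from 19.6, 17.9 and 16.7 to 28.7, 27.6 and 29.2 FPKM, a 1.58-fold rise with a log2 change of 0.63 (limma adjusted p = 0.000449). Ctsh, an aminopeptidase, went from 46.8, 47.1 and 50.2 to 58.2, 57.7 and 61.4 FPKM (log2 change 0.29, limma adjusted p = 0.00273). Ctss, a protease of antigen-presenting cells, was scarce, at 1.36, 0.626 and 0.941 FPKM in the Bgal and 2.90, 2.81 and 1.76 FPKM in the Trim28 libraries. Trim28 library 3 was nearest to the Bgal values for Ctss, and the groups still did not overlap (log2 change 0.82, SE 0.19, limma adjusted p = 0.0114). These rises stood in the libraries in which macrophage, fibroblast and mural cell markers rose, and the part of those cells in them was not tested. Among the macrophage markers, Lyz2, the macrophage lysozyme, stood at 13.8 ± 0.728 and 35.2 ± 0.716 FPKM. Csf1r, the receptor that maintains macrophages, stood at 1.83 ± 0.202 and 4.54 ± 0.347 FPKM. Of the 11 tested markers in that list 1 did not pass, with a log2 difference of -0.27. The complement genes C1qa, C1qb and C1qc were too low to be tested. Of the 16 macrophage and leukocyte markers 6 had a mean under 0.5 FPKM over the 6 libraries, and none was at 0 in every library.

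Ctsl, a cysteine endopeptidase, stood at 181, 181 and 180.1 FPKM and 178, 175 and 175 FPKM. Every Trim28 library lay under every Bgal library by a small margin, and the gene did not pass (log2 difference -0.04, interval -0.12 to 0.04, limma adjusted p = 0.423). Ctsa, a serine carboxypeptidase that shields other hydrolases, overlapped between the groups at 138 ± 4.48 and 137 ± 1.75 FPKM (interval -0.11 to 0.08). Ctsc, which activates serine proteases of immune cells, was at 31.7 ± 4.13 and 29.6 ± 3.64 FPKM, and Ctsk, a collagen-cleaving protease, at 5.40 ± 0.761 and 5.93 ± 0.192 FPKM, neither of which passed. Ctsf fell from 25.01, 24.9 and 23.7 to 21.8, 21.96 and 21.9 FPKM (log2 change -0.16, limma adjusted p = 0.0289). That call was lost on leaving out Bgal replicate 1 (0.0976) or 2 (0.0702), or Trim28 replicate 1 (0.0864), 2 (0.0724) or 3 (0.0588), and with the replicate block (0.0586).

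**Figure D3:**
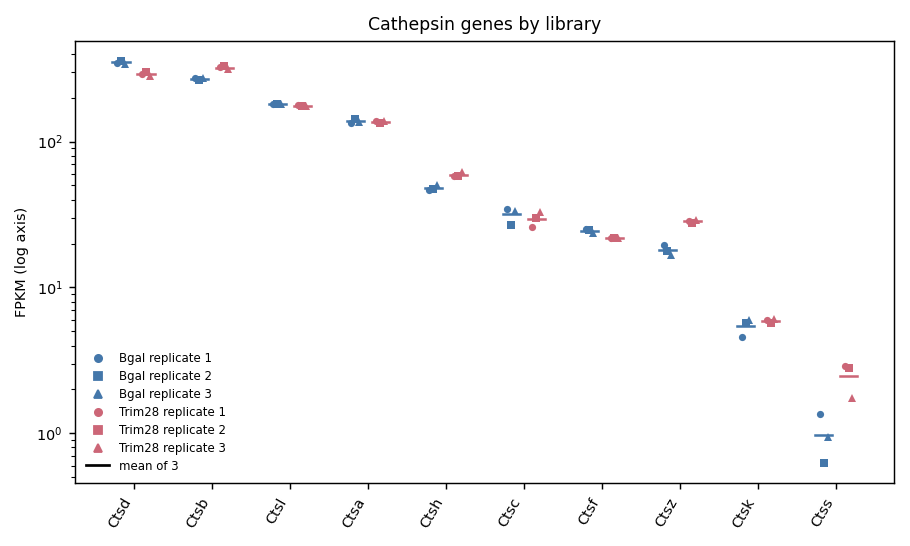
FPKM of the 10 tested cathepsin genes in each library on a log axis, ordered by their Bgal mean; bars are the means of 3 libraries. Ctsd leads in the Bgal libraries and Ctsb in the Trim28 libraries, while Ctsz and Ctss lie higher in every Trim28 library than in any Bgal library.

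The main glycoproteins of the lysosomal membrane did not pass. Lamp1 stood at 129, 137 and 134 FPKM and 139.7, 138 and 136 FPKM, and the groups overlapped (log2 difference 0.05, interval -0.05 to 0.14, limma adjusted p = 0.37). Lamp2, which is needed for autophagosomes to fuse with lysosomes and whose loss causes a heart muscle disease, stood at 80.2, 77.4 and 87.5 FPKM and 73.5, 71.1 and 77.5 FPKM (log2 difference -0.14, with an interval whose upper end lay just under 0, limma adjusted p = 0.094). With the replicate block Lamp2 passed as lower (limma adjusted p = 0.0465).

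The RNA of Tfeb and Tfe3, which are known to switch on genes of these kinds, was close between the groups. Tfeb stood at 20.9, 24.4 and 21.2 FPKM in the Bgal and 21.6, 21.6 and 19.8 FPKM in the Trim28 libraries (log2 difference -0.07, interval -0.24 to 0.10, limma adjusted p = 0.452). Tfe3 stood at 18.3, 20.4 and 16.6 FPKM and 19.4, 20.4 and 19.02 FPKM (log2 difference 0.09, interval -0.09 to 0.27, limma adjusted p = 0.387). Both overlapped between the groups. These factors are known to be controlled largely by where in the cell they are, which RNA levels do not show.

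TFEB and TFE3 bind the E-box CACGTG, best within the longer TCACGTGA or the still longer CLEAR motif. RefSeq promoters of rat build GRCr8, 250 bases before to 50 bases after a gene's start, were found for 59 of the 72 genes by symbol. CACGTG, which reads the same on both strands, stood in 8 of the 59 and in 6.42% of all 33469 promoters of that length. TCACGTGA, which contains it, stood in 5 of the 59 and in 0.777% of all promoters, and the CLEAR motif in 0 of the 59 and 0.233% of all. The 5 with TCACGTGA were those of Lamp1, Atp6v0d1, Atp6v0e1, Ctsd and Atg3, of which Atp6v0d1, Ctsd and Atg3 fell and the other 2 did not pass. That is 3 of the 16 promoters found for genes that fell and 2 of the 27 for genes that did not pass. The shorter CACGTG alone stood in those of Ctsf, which fell, and of Atg5 and Atg14, which did not pass. With these, 4 promoters of each kind held CACGTG. The counts are small, and a link between motif and call was not tested. None of the 10 V1 promoters found, 3 of them of genes too low to test, held CACGTG in this window, those of Atp6v1d, Atp6v1e1, Atp6v1f and Atp6v1g1 among them. As only 6.42% of all promoters hold it, a count of 0 among 10 does not set V1 promoters apart from others. For Atp6v1b2, Atp6v1c1 and Atp6v1h, which also fell, no promoter was found by symbol, so nothing is known of theirs here. The sequences below show 3 genes that fell and hold the motif, 1 that did not pass and holds the most copies, and the pair with the largest falls. Each is given 5′ to 3′ on the gene's strand, with CACGTG, or TCACGTGA where the longer match is present, in capitals. A match is a description of the letters and not a binding site.
Ctsd promoter, chr1:206968772-206969071, minus strand: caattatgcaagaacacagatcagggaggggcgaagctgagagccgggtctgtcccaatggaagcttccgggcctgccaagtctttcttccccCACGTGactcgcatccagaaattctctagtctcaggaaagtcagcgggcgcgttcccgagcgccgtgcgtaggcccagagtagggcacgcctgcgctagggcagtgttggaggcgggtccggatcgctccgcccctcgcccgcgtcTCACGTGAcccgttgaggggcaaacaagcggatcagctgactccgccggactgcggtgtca
Atp6v0d1 promoter, chr19:50357199-50357498, minus strand: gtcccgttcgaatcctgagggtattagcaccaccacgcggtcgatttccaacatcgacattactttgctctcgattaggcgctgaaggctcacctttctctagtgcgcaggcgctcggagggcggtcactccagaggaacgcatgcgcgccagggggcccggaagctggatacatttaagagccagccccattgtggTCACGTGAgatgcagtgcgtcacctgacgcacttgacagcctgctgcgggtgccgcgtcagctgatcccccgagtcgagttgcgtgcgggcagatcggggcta
Atg3 promoter, chr11:69159231-69159530, minus strand: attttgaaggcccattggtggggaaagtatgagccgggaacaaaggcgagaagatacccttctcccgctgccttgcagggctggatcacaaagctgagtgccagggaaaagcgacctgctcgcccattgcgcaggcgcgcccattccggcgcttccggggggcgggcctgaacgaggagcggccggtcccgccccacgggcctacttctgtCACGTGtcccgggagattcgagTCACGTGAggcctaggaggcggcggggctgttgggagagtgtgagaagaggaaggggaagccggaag
Lamp1 promoter, chr16:83075014-83075313, minus strand: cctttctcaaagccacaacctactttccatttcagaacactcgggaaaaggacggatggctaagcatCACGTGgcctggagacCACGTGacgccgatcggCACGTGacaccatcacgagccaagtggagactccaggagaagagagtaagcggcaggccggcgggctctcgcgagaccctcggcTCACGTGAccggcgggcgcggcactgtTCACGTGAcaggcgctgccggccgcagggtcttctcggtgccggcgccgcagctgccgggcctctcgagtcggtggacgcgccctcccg
Atp6v1d promoter, chr6:103405297-103405596, minus strand: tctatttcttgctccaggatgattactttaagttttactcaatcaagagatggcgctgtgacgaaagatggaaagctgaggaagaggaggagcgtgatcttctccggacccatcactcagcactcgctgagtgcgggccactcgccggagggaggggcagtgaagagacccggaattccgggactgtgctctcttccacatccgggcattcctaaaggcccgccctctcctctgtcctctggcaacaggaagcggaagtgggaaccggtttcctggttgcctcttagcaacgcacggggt
Atp6v1g1 promoter, chr5:81976709-81977008, plus strand: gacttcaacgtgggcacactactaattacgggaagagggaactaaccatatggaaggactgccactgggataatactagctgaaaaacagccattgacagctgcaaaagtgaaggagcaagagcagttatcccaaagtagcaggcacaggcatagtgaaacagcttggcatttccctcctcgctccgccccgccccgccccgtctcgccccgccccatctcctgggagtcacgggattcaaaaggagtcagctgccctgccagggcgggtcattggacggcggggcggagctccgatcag

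Among 5 tested genes that start autophagy, 2 fell, 0 rose and 3 did not pass, while 21.1% of all tested genes and 28.2% of those between 10 and 50 FPKM fell. Ulk1, the kinase that starts the process (ENSRNOG00000037505, chromosome 12, 51908448 to 51934702), went from 13.8, 12.4 and 14.7 to 10.8, 11.3 and 10.9 FPKM (log2 change -0.28, limma adjusted p = 0.016), and Atg13, which holds the kinase complex together, from 32.8, 29.7 and 33.7 to 26.5, 28.2 and 27.7 FPKM (log2 change -0.21, limma adjusted p = 0.024). Neither gene overlapped between the groups. Both calls were lost when certain single libraries were left out: Ulk1 did not pass without Bgal replicate 1 (0.0549) or Trim28 replicate 1 (0.052), and Atg13 did not without Bgal replicate 1 (0.0784) or 3 (0.069), or Trim28 replicate 1 (0.0821). Becn1, a subunit of the lipid kinase that marks the forming membrane, stood at 33.8, 33.5 and 36.6 FPKM and 30.97, 31.9 and 31.1 FPKM. The groups did not overlap, but the gene missed the threshold (log2 difference -0.14, limma adjusted p = 0.0559). It passed with the filter at 5 FPKM (0.0498) and in limma-voom (0.0291). Atg101, a partner of Atg13, and Atg14, which directs the lipid kinase to autophagy, overlapped between the groups at 33.3 ± 3.88 and 33.4 ± 0.248 FPKM and at 4.75 ± 0.211 and 4.93 ± 1.06 FPKM.

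The genes that supply lipid to the growing membrane did not pass. Atg9a, a lipid scramblase carried on vesicles, stood at 31.8 ± 3.13 and 35.0 ± 1.26 FPKM, Atg2a, a bridge through which lipids flow, at 10.8 ± 1.05 and 11.7 ± 0.567 FPKM, and its relative Atg2b at 12.9 ± 0.157 and 13.3 ± 0.527 FPKM. All 3 overlapped between the groups, with limma adjusted p-values of 0.181, 0.345 and 0.635. Atg9a alone of these passed in an alternative, as higher without Bgal replicate 2 (0.0499).

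Among 10 tested genes that link LC3 and GABARAP proteins to lipid or cut them loose, 2 fell, 0 rose and 8 did not pass, against 21.1% of all tested genes that fell. Atg4d, a protease that processes LC3 and GABARAP proteins (ENSRNOG00000047625, chromosome 8, 22291445 to 22301331), went from 34.9, 35.0 and 31.3 to 20.9, 24.7 and 23.5 FPKM, a 1.47-fold fall (log2 change -0.53, SE 0.08, limma adjusted p = 0.00144). Atg3, the enzyme that transfers them to lipid (ENSRNOG00000002094, chromosome 11, 60585171 to 60613718), went from 23.5, 21.4 and 23.1 to 17.5, 18.7 and 15.9 FPKM (log2 change -0.37, SE 0.07, limma adjusted p = 0.00566). In both genes the groups did not overlap. The related proteases Atg4b, at 22.7 ± 1.02 and 20.6 ± 0.942 FPKM, and Atg4c, at 7.29 ± 0.448 and 7.03 ± 0.773 FPKM, did not pass. Atg12 and Atg5, which form the conjugate that helps Atg3, stood at 11.8 ± 0.471 and 10.4 ± 0.784 FPKM and at 11.1 ± 0.416 and 9.67 ± 1.26 FPKM (limma adjusted p = 0.0809 and 0.147). Without Trim28 replicate 3, the library with the highest Atg5 level of its group, Atg5 passed as lower (0.0244). Atg7, the enzyme that activates these proteins, Atg10, Atg16l1 and Atg16l2 all overlapped between the groups, with log2 differences from -0.01 for Atg16l1 to 0.17 for Atg16l2.

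Most genes for the proteins that are linked to lipid fell. Of 5 tested LC3 and GABARAP genes, 4 fell, 0 rose and 1 did not pass, with a median log2 change of -0.28. Of all tested genes 21.1% fell, and of those above 100 FPKM, as Gabarap and Map1lc3a are, 40.2% did. Map1lc3b, the form most used as a marker of autophagosomes (ENSRNOG00000017905, chromosome 19, 53629779 to 53646058), stood at 78.4, 83.1 and 80.6 FPKM in the Bgal and at 65.6, 66.5 and 66.5 FPKM in the Trim28 libraries. The Trim28 values were within 1 FPKM of each other and under every Bgal value (log2 change -0.28, SE 0.04, limma adjusted p = 0.00147). Gabarap, the most abundant of the family, went from 263, 263 and 283 to 221, 226 and 233 FPKM (log2 change -0.25, limma adjusted p = 0.00466), and Gabarapl1 from 41.2, 41.01 and 36.3 to 31.1, 30.9 and 29.2 FPKM (log2 change -0.37, limma adjusted p = 0.0031). For Gabarapl2 the levels were 45.8, 43.7 and 51.7 FPKM and 35.3, 38.1 and 38.9 FPKM (log2 change -0.32, limma adjusted p = 0.01). A processed pseudogene that bears the same protein name, at 15.1 FPKM, may share its reads, so this value is uncertain. An entry with the protein name of Map1lc3b stood at 2.23 FPKM. Map1lc3a also lay lower in every Trim28 library, at 173, 178 and 182 FPKM against 160.3, 171 and 158 FPKM, and missed the threshold (log2 difference -0.12, limma adjusted p = 0.0656). It passed in limma-voom (0.0433) and without Trim28 replicate 2 (0.048).

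Sqstm1 encodes p62, which hands ubiquitin-tagged cargo to LC3 and is itself degraded by autophagy (ENSRNOG00000003147, chromosome 10, 35704730 to 35716294). Its RNA stood at 256, 244 and 197 FPKM in the Bgal and at 159, 160.3 and 144 FPKM in the Trim28 libraries. Bgal library 3 was the lowest of its group and still above every Trim28 library. The Trim28 mean was 66.5% of the Bgal mean, with a log2 change of -0.58 (SE 0.10, limma adjusted p = 0.00328).

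**Figure D4:**
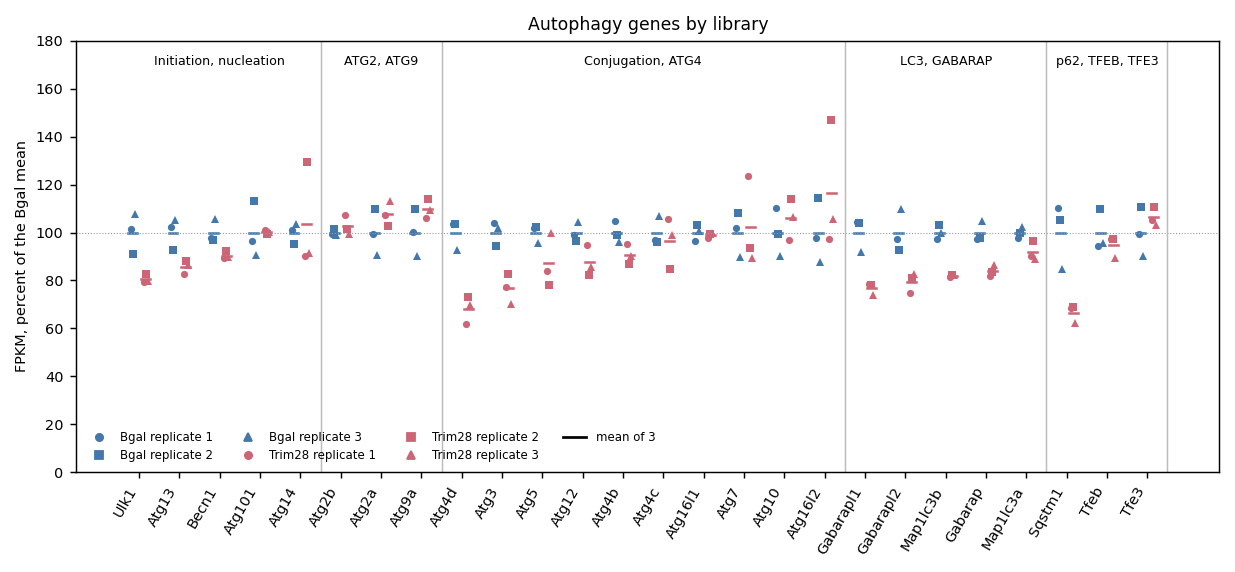
FPKM of the 26 tested autophagy genes, Tfeb and Tfe3 included, in each library as percent of the gene's mean in the 3 Bgal libraries; bars are group means. Sqstm1 and Atg4d lie near 66.5% and 68.2% of the Bgal mean, 4 of the LC3 and GABARAP genes between 76.9% and 84.0%, Tfeb 94.7% and Tfe3 106%.

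The 18 genes that were not tested had at most 0.578 FPKM in any library. Lamp5, Ctsg, Ctsm and Ctsql2 had 0 reads in every library. Ctse, Ctsj, Ctsll3, Ctsq, Ctsr and Ctsw, mostly cathepsins of placenta and blood cells, Lamp3, Atg9b, Atp6v0a4, Atp6v0d2, Atp6v1b1 and Atp6v1g3 had between 2 and 66 reads over the 6 libraries together, as did Atp6v1fnb, a gene next to Atp6v1f that bears its name. Atp6v1e2 had 0, 0 and 1 reads in the Bgal and 16, 9 and 13 reads in the Trim28 libraries, a ratio of read rates of 45.0 (exact 95% interval 7.60 to 1823, counting error only). With no filter it was tested and rose, the only Atp6v gene to do so. Ctsj went the other way, with 6, 9 and 22 reads against 2, 0 and 1.

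Other genes of the same pathways were taken from 9 lists chosen by function, with earlier results of these data known. Over the 165 of their genes that were tested, 32 rose, 40 fell and 93 did not pass, against 20.1% and 21.1% of all tested genes. Of 11 tested genes of pump assembly and accessory proteins, 5 fell, 1, Tcirg1, rose and 5 did not pass (median log2 change -0.15). Rnasek, a small protein bound to the pump, went from 7.15 ± 0.796 to 3.59 ± 0.698 FPKM and Tmem199, an assembly factor, from 32.1 ± 0.396 to 25.6 ± 1.26 FPKM (limma adjusted p = 0.00201 and 0.00242). Of 17 tested genes of nutrient sensing on the lysosome, which control TFEB, 7 fell and 0 rose (median -0.10), against 21.1% and 20.1% of all tested genes. Between 10 and 50 FPKM, where most of the 17 lie, 28.2% of all tested genes fell. Those with the smallest p-values were Lamtor2 and Lamtor5 of the Ragulator complex, which anchors the Rag GTPases, at 30.3 ± 1.60 and 21.6 ± 0.385 FPKM and at 51.3 ± 3.11 and 37.9 ± 1.82 FPKM.

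Of 40 tested lysosomal hydrolases and their activators, 12 rose, 6 fell and 22 did not pass (median 0.06), that is 30.0% and 15.0% against the 20.1% of all tested genes that rose and the 21.1% that fell. Gm2a, the activator of ganglioside breakdown, rose from 13.7 ± 0.991 to 24.1 ± 0.218 FPKM and Lipa, the acid lipase, from 31.2 ± 1.49 to 45.4 ± 2.18 FPKM (limma adjusted p = 0.000162 and 0.000463). Of 25 membrane proteins 10 rose, 3 fell and 12 did not pass (median 0.19). Cd68, which is also a macrophage marker, rose from 7.83 ± 0.476 to 15.4 ± 0.328 FPKM, and Laptm4b from 89.2 ± 4.26 to 132 ± 10.6 FPKM. These rises stood beside the higher sums of macrophage, fibroblast and mural cell markers given above, whose part in them was not tested. Cd68 and Laptm5, which both rose, belong to the membrane protein list and to the macrophage markers, so they count on both sides. Among 14 sorting genes 3 rose and 2 fell (median 0.06): Igf2r, a receptor that carries hydrolases to lysosomes, rose from 128 ± 3.77 to 173 ± 3.16 FPKM, while Vps26a of the retromer dropped to 41.1 ± 3.18 FPKM from 77.02 ± 5.97 (limma adjusted p = 0.000271 and 0.000196).

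The lists of autophagy genes outside the ATG names are read against the 21.1% of all tested genes that fell and the 28.2% of those between 10 and 50 FPKM, to which the shares of the fusion and initiation lists were near. Of 13 tested cargo receptors 5 fell and 0 rose (median -0.11), led by Optn, a receptor for damaged mitochondria and bacteria, from 32.7 ± 0.702 to 20.2 ± 1.09 FPKM, and Bnip3, a mitophagy receptor, from 55.2 ± 5.84 to 30.2 ± 2.68 FPKM. Of 18 genes for fusion with lysosomes 5 (27.8%) fell and 0 rose (median -0.13), with Vamp8, a fusion protein of the vesicle, at 137 ± 7.25 and 88.8 ± 8.44 FPKM and Vps11, a tethering subunit, at 43.5 ± 1.93 and 31.5 ± 1.73 FPKM. Of 21 further initiation and nucleation genes 6 (28.6%) fell and 3 rose (median -0.07). The smallest p-values there were those of Uvrag, a Becn1 partner, and the kinase Ulk2, which rose from 11.99 ± 0.848 to 16.7 ± 0.453 FPKM and from 8.42 ± 0.505 to 11.8 ± 0.562 FPKM. Of 6 tested genes in the list of cathepsin inhibitors, 3 rose and 1 fell (median 0.53), against 20.1% and 21.1% of all tested genes. Cstb, the cytosolic inhibitor cystatin B, stood at 247, 241 and 253 FPKM in the Bgal libraries and 117, 105 and 123 FPKM with Trim28, a 2.15-fold fall (limma adjusted p = 5.93e-05). The 3 that rose, Serping1, Serpinb1a and Serpina3n, are serpins known mainly as inhibitors of serine proteases, and Serping1 went from 17.4 ± 0.662 to 35.2 ± 3.31 FPKM.

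**Figure D5:**
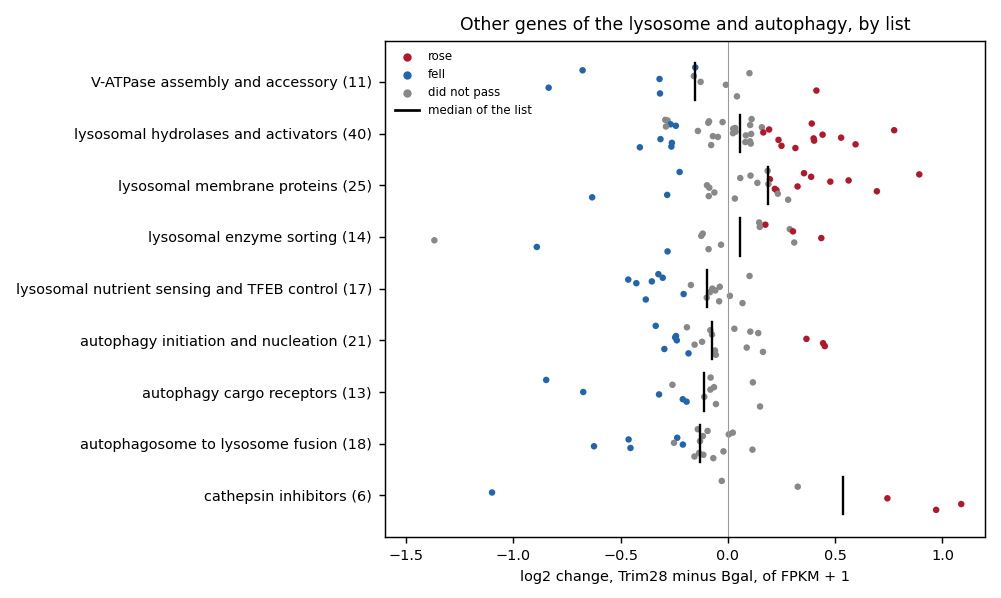
Log2 change of FPKM + 1, Trim28 minus Bgal, of the tested genes in 9 lists of lysosome and autophagy genes outside the 72, with the number tested in brackets; each point is 1 gene, coloured by its call at a limma adjusted p of 0.05, and black bars are list medians. Points of the fusion, cargo receptor and nutrient sensing lists that passed lie left of 0, and those of the membrane protein list mostly right of 0.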

How the data were processed

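Poly(A) RNA of 3 Bgal and 3 Trim28 libraries was sequenced in pairs on an Illumina instrument, with a dUTP step that keeps the strand, per the labels' protocols. The deposited table gives FPKM per gene and library as the authors made them, with gene length and class, per the file headers. HISAT2 2.0.5 and DESeq2 are named in the submitters' processing notes. Which genome build and annotation were used, and how reads were counted and on which strand, is not given in the labels. FPKM is relative to a library's total, so RNA that takes many reads lowers all other values. The table held 0 columns of other samples.

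FPKM times gene length fell on whole multiples of 1 step per library for 100% of values above 0 (within 0.01), which gave the reads. Genes at 0.5 FPKM or more in at least 3 libraries were tested on log2(FPKM + 1) with limma (version 3.58.1, R 4.3.3), a trend of variance on level, no covariates and adjustment over 14808 genes. Folds are ratios of mean FPKM, while log2 changes are of FPKM + 1 and understate the change of low genes. Values are mean ± SD of 3 libraries. The fit was also run on simulated reads with 200 of 14808 genes changed and the same spread for every gene. In the real data 41.2% of tested genes were called, so that run does not show the error rate here. Alternatives were a pseudocount of 0.1, no filter, a filter at 5 FPKM, TMM rescaling, limma-voom on the reads, a replicate block and leaving out each library. Members, lists and naming rule were chosen with earlier results of these data known. The rule names per role group up to 4 members with the smallest p, 11 fixed genes, all untested members, and 2 genes per other list. Other genes named were chosen after their values were seen.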

Additional observations from a re-analysis of the deposited data

How the results depend on the processing

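Of the 24 genes that rose or fell, 20 passed in every one of the 12 alternatives that tested them, Ctss not being tested with the filter at 5 FPKM. The other 4 were Atp6v0e2, Ctsf, Ulk1 and Atg13. No log2 change that passed in any of these fits changed sign. Over the 12 alternatives the number that fell ranged from 16 to 24 and the number that rose from 3 to 5. V0 genes that fell were 1 with no filter, 4 in limma-voom on the recovered reads, 1 with the replicate block, and 1 to 2 when a library was left out. Cathepsins that fell were 1 with the replicate block and 1 to 2 without 1 library. With no filter 1 V1 gene rose, Atp6v1e2, and with the replicate block 1 LAMP gene fell, Lamp2. Initiation genes that fell ranged from 0 to 2, and lipid supply genes that rose from 0 to 1, when a library was left out. The cause of these differences was not tested. Fits without a library held fewer libraries, and the fit with no filter held more genes. Limma-voom and the replicate block used the same libraries and genes as the main fit. Same-numbered Bgal and Trim28 libraries deviated from their group means with correlations of -0.0164, 0.135 and 0.00915 across genes, so the numbers were not taken to pair them. The replicate block left 19 genes that fell and 4 that rose. A pseudocount of 0.1 and TMM rescaling changed no call among the 54 genes. Genes under about 1 FPKM rest on few reads, and 3 libraries a group limit every interval.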

Other observations

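Among the sorting genes, the retromer subunits, which return sorting receptors from endosomes, were unequal: Vps26a stood at 79.7, 70.2 and 81.1 FPKM in the Bgal and 38.6, 39.95 and 44.7 FPKM in the Trim28 libraries, Vps35 at 63.4, 56.6 and 62.4 and 46.6, 49.8 and 53.3 FPKM, and Vps29 at 43.0, 41.4 and 41.5 and 38.9, 39.5 and 39.7 FPKM. Vps26a and Vps35 fell (limma adjusted p = 0.000196 and 0.0125) and Vps29 did not pass (0.113).

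M6pr, the other receptor for hydrolases beside Igf2r, had 20.8, 3.16 and 2.08 FPKM in the Bgal libraries and 1.21, 1.77 and 1.65 FPKM in the Trim28 libraries. Bgal library 1 stood far above the other 5, and the gene did not pass (limma adjusted p = 0.135). The Ragulator genes Lamtor1 and Lamtor3 also fell (0.0214 and 0.00331), and Lamtor4, like the pump assembly gene Vma21, was listed at 0 in every library, which says only how these genes are listed. All genes of these 2 paragraphs were chosen after their values were seen, except Vps26a and Igf2r.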
